A study of Mus musculus with 64 samples.

Results

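The genes of sterol synthesis and cholesterol efflux described here are 31 of the 55487 genes in the count tables of bone marrow-derived macrophages (BMMs). They were listed by gene symbol, with earlier results of these data known. All 31 were among the 14537 genes that passed the filter on low counts and were tested. By role, 8 belong to the mevalonate pathway, 11 to the steps from farnesyl pyrophosphate to cholesterol, 6 to the control of the sterol regulatory element binding proteins (SREBPs) and 5 to the liver X receptors (LXRs) and cholesterol efflux. The remaining member is Ch25h, the gene of an enzyme that makes an oxysterol.

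Cells build cholesterol from acetyl-CoA by way of mevalonate, farnesyl pyrophosphate, squalene and lanosterol. The genes of this route are driven by SREBPs, which the escort protein SCAP carries out of the endoplasmic reticulum when sterols are low and which INSIG proteins hold back when sterols are high. When cholesterol is plentiful, oxysterols and late intermediates of the route activate LXRs, and these switch on the transporters ABCA1 and ABCG1, which pass cholesterol to lipoprotein particles outside the cell. In macrophages, Ch25h is known as a gene that rises after contact with bacterial products and interferons, and its oxysterol product holds back SREBPs.

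BMMs were grown from bone marrow of 4 Ahr+/+ and 4 Ahr-/- mice in medium rich in macrophage colony-stimulating factor from L929 fibroblasts, and were harvested at day 6. Ahr+/+ mice were female C57BL/6JRj animals, and the Ahr-/- line came from another supplier and was back-crossed to them, with mice of both genotypes used at 8 to 12 weeks of age. The product of Ahr, the aryl hydrocarbon receptor (AhR), is a transcription factor switched on by its ligands. Cells were exposed for 6 h to DMSO at 0.01%, to the AhR ligand benzo[a]pyrene (BaP) at 1 µM or to the AhR ligand indole-3-carbinol (I3C) at 10 µM. They were then activated with heat-killed Salmonella Enteritidis (hk S.E.) at 10000000 per ml for 3 h or 20 h. One further group per genotype and time point received DMSO and no bacteria. The 16 groups of genotype, time and treatment have 4 RNA-seq libraries each, 64 in all, and the labels number them 1 to 4 within a group. Within a genotype, equal numbers were read as 1 mouse.

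Library totals were 12152496 to 50644601 counts on genes, apart from 233047331 in replicate 4 of the unactivated Ahr+/+ group at 20 h. All 7 macrophage markers were tested, and markers of B cells, erythroid cells and mast cells were not expressed enough for a test in any of the lists. The 6 genes checked for activation (Il1b, Il6, Tnf, Nos2, Cxcl10 and Il12b) rose with hk S.E. in both genotypes at both times. RNA of Ahr itself was not lower in the libraries labelled Ahr-/-, at 5.11 to 28.1 CPM (counts scaled to a common library size after TMM normalization) with a median of 12.9 (n = 32), than in those labelled Ahr+/+, at 1.09 to 14.9 with a median of 7.25 (n = 32). The sources used here do not give the deleted part of the gene, so these counts do not check the label. In place of Ahr, its target Ahrr, the AhR repressor gene, rose with BaP in Ahr+/+ BMMs by 3.36 on the log2 scale at 3 h and 1.73 at 20 h and was called with neither ligand in Ahr-/- BMMs. The library identifiers in the labels fall into 4 series. At 20 h, all 12 activated Ahr+/+ libraries are of one series and all 16 Ahr-/- libraries of another, so that genotype and identifier series cannot be told apart among the activated libraries at 20 h. Of the unactivated Ahr-/- libraries at 3 h, replicate 1 stood apart, since its deviations from the group mean followed those of replicates 3 and 4 and not those of its own number. Without it, 16 of the 17 members called in the activation of Ahr-/- BMMs at 3 h were still called. Between the unactivated Ahr-/- groups at 20 h and 3 h, 3 of 6 (Sqle, Cyp51 and Srebf2) were still called, Hmgcs1, Fdps and Hsd17b7 were not, and Srebf1 was called in addition.

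Levels between genes were compared as CPM per kilobase of exon, where each base in an exon of any annotated transcript counts once. In unactivated Ahr+/+ BMMs at 3 h, the efflux transporter gene Abca1 had the highest level of the 31 genes at 31.5 ± 3.59 (SD, n = 4), followed by Abcg1 at 22 ± 2.49 and by Nr1h2, the gene of LXRβ, at 20 ± 2.94. The last 2 of these did not differ beyond their spread. At the other end stood Lss, the gene of lanosterol synthase, at 0.916 ± 0.0433 and Ch25h at 0.484 ± 0.157 CPM per kilobase. The place of Lss depends on its exon length of 10787 bases. In plain CPM, its mean of 9.88 lay above those of Acat2 (4.19) and Idi1 (3.66). After 20 h with hk S.E., Ch25h was the highest at 67.4 ± 16.2, within the spread of Abca1 at 56.4 ± 10, and Nr1h3, the gene of LXRα, followed at 40.1 ± 3.34. Idi1, the gene of isopentenyl diphosphate isomerase, was then the lowest at 0.313 ± 0.037. In both groups, the means of Abca1, Abcg1 and Nr1h2 lay above those of all 19 genes of synthesis.

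The first comparison asked how activation with hk S.E. changed these genes after DMSO. Differentially expressed genes (DEGs) were those with a Benjamini-Hochberg adjusted p below 0.01 over all 14537 genes in edgeR's quasi-likelihood test. In Ahr+/+ BMMs at 3 h, 6 of the 31 genes rose and 12 fell, where 56.6% of all genes (24.2% higher and 32.3% lower) were DEGs. At 20 h, 6 rose and 13 fell, against 58.6% of all genes (29.9% higher and 28.7% lower). In Ahr-/- BMMs, 8 rose and 9 fell at 3 h, against 57.3% of all genes (25.5% higher and 31.8% lower), and 9 rose and 7 fell at 20 h, against 54.3% of all genes (28.3% higher and 26% lower). The shares of members called, between 51.6% and 61.3%, were thus close to those of all genes. The median log2 fold change of the 31 genes was -0.29 and -0.31 in Ahr+/+ BMMs and -0.14 and 0.12 in Ahr-/- BMMs at 3 h and 20 h, where all genes had medians of -0.10, 0.00, -0.08 and 0.02. Of the 70 calls, 46 held under every alternative tried. In bulk RNA, fewer cells of a type and less RNA per cell cannot be told apart. The summed level of 5 neutrophil markers was 2.18 to 9.45 CPM in unactivated Ahr+/+ BMMs at 3 h and 24.8 to 61.7 CPM with hk S.E. Of these 5 markers, 2 were tested and 3 did not pass the filter. Their part in the results was not tested.

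**Figure D1:**
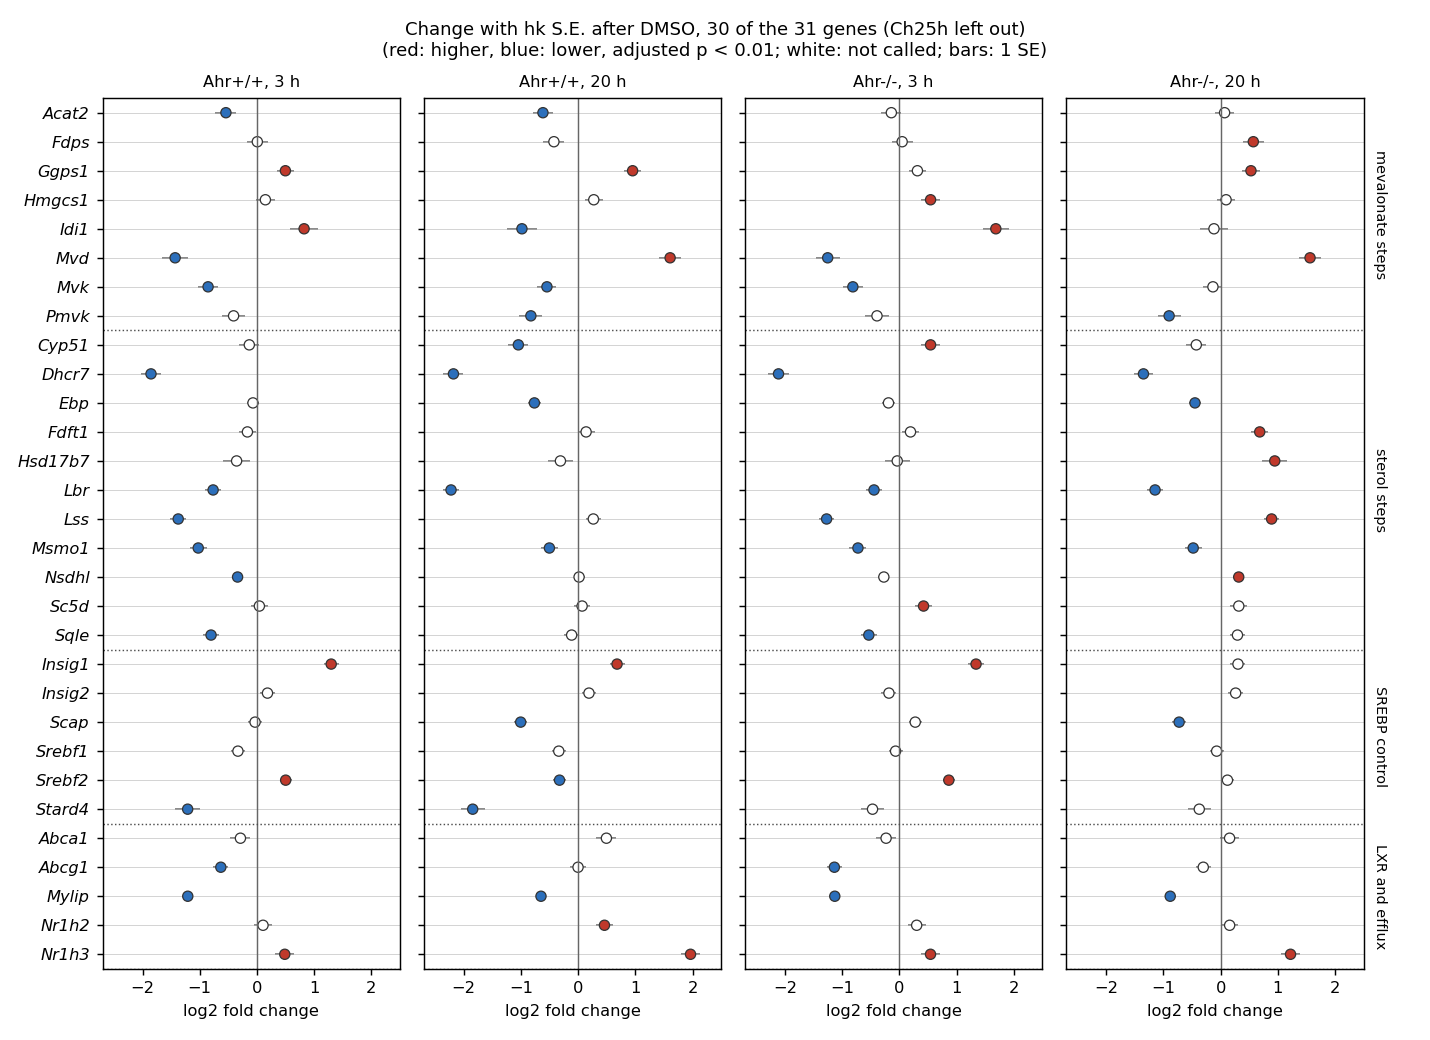
Log2 fold change with hk S.E. against unactivated BMMs after DMSO (horizontal axis) for 30 of the 31 genes, without Ch25h, by role and in the 4 groups of genotype and time, with filled points for DEGs and bars for the SE. Mvd and Lss lie below 0 at 3 h and above 0 at 20 h in both genotypes, and Dhcr7 and Lbr lie below 0 in all 4 comparisons.

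In the mevalonate pathway, Mvd changed in opposite directions at the 2 times, and had the largest log2 fold change of its 8 genes except in Ahr-/- BMMs at 3 h, where Idi1 rose further (1.69). Mvd encodes mevalonate diphosphate decarboxylase, the enzyme that makes isopentenyl diphosphate. Its CPM in Ahr+/+ BMMs, given in the order of replicates 1 to 4 here and throughout, were 6.18, 6.3, 9.57 and 7.35 unactivated and 3.37, 1.7, 2.91 and 2.97 activated at 3 h. The Ahr-/- values at 3 h were 5.92, 9.03, 8.09 and 8.4 unactivated and 4.24, 3.94, 3 and 1.92 activated. All activated libraries lay below all unactivated ones in either genotype, with log2 fold changes of -1.43 (SE 0.22, edgeR's quasi-likelihood test, adjusted p = 1.33e-07) and -1.25 (SE 0.21, adjusted p = 6.95e-07). At 20 h, Mvd was at 6.28, 7.48, 7.63 and 8.12 unactivated and 23, 20.4, 21.7 and 25.3 activated in Ahr+/+ BMMs and at 7.85, 8.16, 4.75 and 5.63 unactivated and 23.1, 22, 16.3 and 15.6 activated in Ahr-/- BMMs. Here all activated libraries lay above the unactivated ones, with log2 fold changes of 1.61 (SE 0.19, edgeR's quasi-likelihood test, adjusted p = 8.93e-11) in Ahr+/+ and 1.56 (SE 0.19, adjusted p = 3.66e-10) in Ahr-/- BMMs. The change from 3 h to 20 h in the effect of activation was itself tested and was 3.04 (SE 0.29) in Ahr+/+ and 2.82 (SE 0.28) in Ahr-/- BMMs on the log2 scale, a DEG in both.

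Idi1, whose enzyme acts on the product of Mvd, showed the reverse order of times. In Ahr+/+ BMMs at 3 h, Idi1 was at 3.36, 4.39, 2.32 and 4.55 unactivated and 5.34, 5.32, 6.23 and 9.25 activated CPM, and in Ahr-/- BMMs at 4.05, 3.31, 3.35 and 3.7 unactivated and 8.78, 10.2, 15 and 12.4 activated CPM. It rose in both genotypes, by 0.82 (SE 0.24, edgeR's quasi-likelihood test, adjusted p = 0.00209) and by 1.69 (SE 0.23, adjusted p = 6.88e-09) on the log2 scale. At 20 h, the values were 1.92, 1.85, 1.85 and 2.86 unactivated and 1.17, 1.05, 0.943 and 1.24 activated in Ahr+/+ and 2.38, 0.866, 3.18 and 2.63 unactivated and 1.74, 2.06, 2.5 and 2.39 activated in Ahr-/- BMMs. Idi1 thus fell in Ahr+/+ BMMs, with a log2 fold change of -0.98 (SE 0.26, edgeR's quasi-likelihood test, adjusted p = 7.40e-04), while the groups overlapped in Ahr-/- BMMs at -0.12 (SE 0.24, adjusted p = 0.698). In Ahr+/+ BMMs, the rise at 3 h was lost without replicate 4 of the activated libraries or replicate 3 of the unactivated libraries (adjusted p up to 0.0208, edgeR's quasi-likelihood test), and the fall at 20 h without replicate 4 of the unactivated libraries (adjusted p up to 0.0158).

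Hmgcs1 encodes the cytosolic synthase of hydroxymethylglutaryl-CoA, which feeds the pathway. At 3 h, its CPM were 38.1, 45, 35.5 and 44.9 unactivated and 41.9, 37.1, 49.5 and 52.8 activated in Ahr+/+ BMMs and 52.2, 33.9, 45.5 and 47.7 unactivated and 59.4, 59.4, 72.4 and 70.5 activated in Ahr-/- BMMs. At 20 h, they were 27.6, 25.1, 29.7 and 28.6 unactivated and 33.6, 32.4, 31.8 and 36.3 activated in Ahr+/+ and 22.4, 23.8, 34 and 36.9 unactivated and 23.7, 23.4, 40 and 38.3 activated in Ahr-/- BMMs. The rise passed the test in Ahr-/- BMMs at 3 h alone, with a log2 fold change of 0.55 (SE 0.16, edgeR's quasi-likelihood test, adjusted p = 0.0024), and the 3 other log2 fold changes were 0.15, 0.27 and 0.10. In Ahr-/- BMMs at 20 h, replicates 1 and 2 had lower values than replicates 3 and 4 with and without bacteria. The call at 3 h was lost without replicate 3 of the activated libraries or replicate 2 of the unactivated libraries (adjusted p up to 0.0225, edgeR's quasi-likelihood test).

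Among the other genes of the pathway, Mvk (mevalonate kinase) fell in 3 of the 4 comparisons, with log2 fold changes of -0.85 and -0.55 in Ahr+/+ BMMs and -0.81 in Ahr-/- BMMs at 3 h. Pmvk (phosphomevalonate kinase) fell at 20 h in both genotypes, by 0.83 and 0.90 on the log2 scale. Ggps1, the gene of geranylgeranyl diphosphate synthase on the branch that leaves the sterol route, rose by 0.50 and 0.95 in Ahr+/+ BMMs and by 0.53 in Ahr-/- BMMs at 20 h on the log2 scale, and its log2 fold change of 0.32 at 3 h passed with the replicate number as a block (adjusted p = 0.00941, edgeR's quasi-likelihood test). Acat2, the gene of a cytosolic acetyl-CoA acetyltransferase, fell in Ahr+/+ BMMs by 0.54 and 0.62 on the log2 scale. Its call at 3 h held in 4 of 15 alternatives and was lost without replicate 1 or 3 of the activated libraries or replicate 1, 2 or 4 of the unactivated libraries (adjusted p up to 0.0744, edgeR's quasi-likelihood test), and that at 20 h was lost without replicate 2 of the activated libraries (adjusted p up to 0.0113). Fdps encodes farnesyl diphosphate synthase. Its CPM at 3 h were 7.45, 8.36, 10.1 and 12.7 unactivated and 8.43, 8.43, 10.1 and 11.8 activated in Ahr+/+ and 8.87, 8.76, 10.3 and 10.1 unactivated and 10.6, 9.43, 8.73 and 10.7 activated in Ahr-/- BMMs, and at 20 h 6.21, 5.91, 6.99 and 9.9 unactivated and 4.09, 5.27, 6.35 and 6.05 activated in Ahr+/+ and 7.14, 5.69, 5.21 and 5.94 unactivated and 9.78, 11.5, 6.51 and 7.87 activated in Ahr-/- BMMs. Fdps rose in Ahr-/- BMMs at 20 h by 0.57 on the log2 scale. In Ahr+/+ BMMs at 20 h its log2 fold change was -0.42, which was a DEG with the replicate block (adjusted p = 0.00446, edgeR's quasi-likelihood test) and not without it. The call of Fdps in Ahr-/- BMMs was lost without replicate 1 or 2 of the activated libraries or replicate 2, 3 or 4 of the unactivated libraries (adjusted p up to 0.0478, edgeR's quasi-likelihood test). That of Mvk in Ahr+/+ BMMs at 20 h was lost without replicate 1 or 2 of the activated libraries or replicate 4 of the unactivated libraries (adjusted p up to 0.0219, edgeR's quasi-likelihood test). For Ggps1, the call in Ahr+/+ BMMs at 3 h was lost without replicate 2 of the activated libraries or replicate 3 or 4 of the unactivated libraries (adjusted p up to 0.0293, edgeR's quasi-likelihood test), and in Ahr-/- BMMs at 20 h without replicate 3 or 4 of the activated libraries or replicate 1 or 2 of the unactivated libraries (adjusted p up to 0.0217).

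The promoters of Hmgcs1 and Mvd are shown because the first is the only member with the letters of a sterol regulatory element in its window and the second had the largest turn between 3 h and 20 h. Each sequence is the 250 bases directly upstream of a RefSeq transcript start on GRCm38.p6, read 5′ to 3′ on the strand of the gene. Capitals mark CCAAT on either strand and the sterol regulatory element TCACNCCAC.
Hmgcs1 promoter, chr13:119690101-119690350, plus strand: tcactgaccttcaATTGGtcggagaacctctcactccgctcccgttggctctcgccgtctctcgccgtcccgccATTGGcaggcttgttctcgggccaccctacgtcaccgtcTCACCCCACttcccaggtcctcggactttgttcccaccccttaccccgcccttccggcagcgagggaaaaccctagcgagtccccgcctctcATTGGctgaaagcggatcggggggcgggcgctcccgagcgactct
Mvd promoter, chr8:122443423-122443672, minus strand: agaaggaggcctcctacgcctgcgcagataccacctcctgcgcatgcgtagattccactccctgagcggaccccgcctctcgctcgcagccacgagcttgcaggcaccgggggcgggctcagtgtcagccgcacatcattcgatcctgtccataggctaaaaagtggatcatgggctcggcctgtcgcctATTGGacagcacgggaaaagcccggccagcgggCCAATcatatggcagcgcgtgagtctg
Windows were found for 26 of the 31 genes, and not for Fdft1, Sqle, Stard4, Fdps and Abcg1. CCAAT, the letters bound by the factor NF-Y, occurred on either strand in the windows of 20 of the 26, against 37.5% of 27025 genes with a window. The 9 letters TCACNCCAC occurred in 1 of the 26, against 1.22% of all genes. GCGTG, the core of the AhR response element, occurred in 15 of the 26 against 30.9%, AGGTCA, a half-site of nuclear receptors, in 3 against 15.8%, and GAAANNGAA, the core of the interferon-stimulated response element, in 2 (Ggps1 and Ebp) against 8.18%. These are matches of letters in short windows on both strands and not measured binding.

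Of the 11 genes from farnesyl pyrophosphate to cholesterol, none rose and 6 fell in Ahr+/+ BMMs at 3 h, and none rose and 5 fell at 20 h, where 24.2% and 29.9% of all genes rose and 32.3% and 28.7% fell. Ahr-/- BMMs had 2 that rose and 5 that fell at 3 h, where 25.5% of all genes rose and 31.8% fell, and 4 that rose and 4 that fell at 20 h, where 28.3% rose and 26% fell. Summed over the 11 genes, the level in Ahr+/+ BMMs at 20 h was 50.7 to 56.2 CPM per kilobase without and 33.9 to 36.5 with bacteria. For the Ahr-/- BMMs at 20 h, it was 47.4 to 54.8 without and 39.7 to 51.7 with bacteria. The summed level was lower with hk S.E. in Ahr+/+ BMMs with no overlap, and the groups overlapped in Ahr-/- BMMs.

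Dhcr7, the gene of the reductase that turns 7-dehydrocholesterol into cholesterol, fell in all 4 comparisons. At 3 h, the CPM were 16.4, 15.6, 14.3 and 15.4 unactivated and 4.78, 4.13, 3.18 and 4.98 activated in Ahr+/+ and 13.5, 19, 13.8 and 16.3 unactivated and 4.11, 2.88, 3.84 and 3.64 activated in Ahr-/- BMMs. The values at 20 h were 17.4, 17, 17.6 and 17.1 unactivated and 4.09, 3.06, 4.46 and 3.62 activated in Ahr+/+ and 16.7, 16.8, 16.8 and 15.2 unactivated and 7.28, 7.91, 4.89 and 5.67 activated in Ahr-/- BMMs. No activated library reached an unactivated one, and the log2 fold changes were -1.85 (SE 0.18, edgeR's quasi-likelihood test, adjusted p = 2.16e-13) and -2.18 (SE 0.17, adjusted p = 1.58e-16) in Ahr+/+ BMMs at 3 h and 20 h. For Ahr-/- BMMs, they were -2.11 (SE 0.18, edgeR's quasi-likelihood test, adjusted p = 2.06e-15) and -1.35 (SE 0.17, adjusted p = 4.33e-10). These were the largest falls of any of the 31 genes except in Ahr+/+ BMMs at 20 h, where Lbr fell further.

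Lbr encodes the lamin B receptor, a protein of the inner nuclear membrane that is also a sterol reductase of the cholesterol route. At 3 h, Lbr was at 22.2, 23.5, 16.3 and 21.1 unactivated and 14.3, 11.2, 10.6 and 12.9 activated CPM in Ahr+/+ BMMs and at 21, 18.3, 20.7 and 20.4 unactivated and 11.7, 13.8, 16.4 and 17.2 activated CPM in Ahr-/- BMMs. The values at 20 h were 30.6, 30.5, 27.9 and 30.1 unactivated and 7.19, 6.16, 6 and 6.18 activated in Ahr+/+ and 25.7, 20, 29.4 and 27.8 unactivated and 9.91, 12.1, 11.7 and 13 activated in Ahr-/- BMMs. The groups did not overlap in any of the 4 comparisons. Lbr fell at 3 h with log2 fold changes of -0.77 (SE 0.14) and -0.44 (SE 0.13) and at 20 h with -2.22 (SE 0.14, edgeR's quasi-likelihood test, adjusted p = 9.62e-21) in Ahr+/+ and -1.15 (SE 0.13, adjusted p = 6.34e-11) in Ahr-/- BMMs. The call in Ahr-/- BMMs at 3 h was lost without replicate 1 or 2 of the activated libraries (adjusted p up to 0.0707, edgeR's quasi-likelihood test). The promoter is shown as that of the gene with the largest fall. Its 250 bases upstream of the RefSeq transcript start on GRCm38.p6 hold CCAAT at 2 places, in capitals, and neither TCACNCCAC nor GCGTG.
Lbr promoter, chr1:181842402-181842651, minus strand: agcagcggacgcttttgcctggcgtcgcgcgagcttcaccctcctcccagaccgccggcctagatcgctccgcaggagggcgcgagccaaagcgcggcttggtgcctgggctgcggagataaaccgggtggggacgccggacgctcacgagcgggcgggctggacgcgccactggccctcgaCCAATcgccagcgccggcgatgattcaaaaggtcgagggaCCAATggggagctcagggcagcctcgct

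Sqle encodes squalene epoxidase, an early oxygen-using step of the route. Its CPM at 3 h were 27.7, 30.3, 28.3 and 45 unactivated and 17.1, 17.8, 18.3 and 22.1 activated in Ahr+/+ BMMs and 29.3, 26.1, 29.6 and 38.9 unactivated and 18.4, 20.4, 21.9 and 24.8 activated in Ahr-/- BMMs. By 20 h, the CPM were 19.2, 17.1, 21.1 and 21.8 unactivated and 17.1, 18.3, 18 and 19.8 activated in Ahr+/+ and 15.4, 16.3, 18.5 and 20.2 unactivated and 23.8, 22.9, 20 and 20 activated in Ahr-/- BMMs. Sqle fell at 3 h in both genotypes, with log2 fold changes of -0.80 (SE 0.14, edgeR's quasi-likelihood test, adjusted p = 1.49e-06) and -0.54 (SE 0.14, adjusted p = 6.32e-04), and the values of -0.11 and 0.29 at 20 h did not pass. Unactivated libraries at 20 h already lay below those at 3 h. In BMMs labelled Ahr-/-, the fall at 3 h was lost without replicate 1 of the activated libraries or replicate 4 of the unactivated libraries (adjusted p up to 0.0126, edgeR's quasi-likelihood test).

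Lss, which closes the sterol rings, fell at 3 h by 1.38 and 1.27 on the log2 scale in Ahr+/+ and Ahr-/- BMMs. At 20 h, it rose in Ahr-/- BMMs by 0.89 and had a log2 fold change of 0.27 in Ahr+/+ BMMs that did not pass. Cyp51, the gene of lanosterol demethylase, fell in Ahr+/+ BMMs at 20 h (-1.05) and rose in Ahr-/- BMMs at 3 h (0.55), while its log2 fold change of -0.43 in Ahr-/- BMMs at 20 h passed only with the replicate block (adjusted p = 0.00334, edgeR's quasi-likelihood test). Msmo1, the gene of a sterol oxidase that acts after Cyp51, fell in all 4 comparisons, with log2 fold changes from -1.03 to -0.48. Ebp, the gene of the sterol isomerase, fell at 20 h by 0.77 in Ahr+/+ and 0.45 in Ahr-/- BMMs on the log2 scale. Hsd17b7 encodes a ketosteroid reductase of the route. At 3 h, the CPM were 3.41, 5.67, 5.87 and 5.74 unactivated and 3.66, 2.49, 4.64 and 5.5 activated in Ahr+/+ and 6.02, 3.91, 5.57 and 7.91 unactivated and 4.42, 6.18, 6 and 6.07 activated in Ahr-/- BMMs, and at 20 h 3.24, 2.92, 3.59 and 3.56 unactivated and 2.43, 2.24, 3.39 and 2.66 activated in Ahr+/+ and 2.32, 3.22, 3.73 and 3.94 unactivated and 5.38, 7.42, 5.19 and 7.58 activated in Ahr-/- BMMs. Among Ahr-/- BMMs at 20 h, Hsd17b7 rose by 0.95 and Fdft1, the gene of squalene synthase, by 0.68 on the log2 scale, and neither was a DEG in Ahr+/+ BMMs. The calls of Nsdhl, a sterol dehydrogenase gene, rested on smaller values of -0.34 in Ahr+/+ BMMs at 3 h and 0.32 in Ahr-/- BMMs at 20 h. Sc5d, the gene of a sterol desaturase, rose only in Ahr-/- BMMs at 3 h (0.42) and, with the replicate block, at 20 h (0.32, adjusted p = 0.00512, edgeR's quasi-likelihood test). Among these genes, single libraries decided the calls of Nsdhl in Ahr+/+ BMMs at 3 h, lost without replicate 1, 3 or 4 of the activated libraries or replicate 4 of the unactivated libraries (adjusted p up to 0.0582, edgeR's quasi-likelihood test), and in Ahr-/- BMMs at 20 h, lost without replicate 1 or 2 of the activated libraries or replicate 3 or 4 of the unactivated libraries (adjusted p up to 0.025). At 3 h in Ahr-/- BMMs, the rise of Cyp51 was lost without replicate 3 or 4 of the activated libraries or replicate 2 of the unactivated libraries (adjusted p up to 0.028, edgeR's quasi-likelihood test) and that of Sc5d without replicate 2, 3 or 4 of the activated libraries or replicate 2 or 3 of the unactivated libraries (adjusted p up to 0.0766). At 20 h, the fall of Msmo1 was lost in Ahr+/+ BMMs without replicate 3 of the activated libraries (adjusted p up to 0.0109, edgeR's quasi-likelihood test) and in Ahr-/- BMMs without replicate 1 of the activated libraries or replicate 3 or 4 of the unactivated libraries (adjusted p up to 0.0343).

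**Figure D2:**
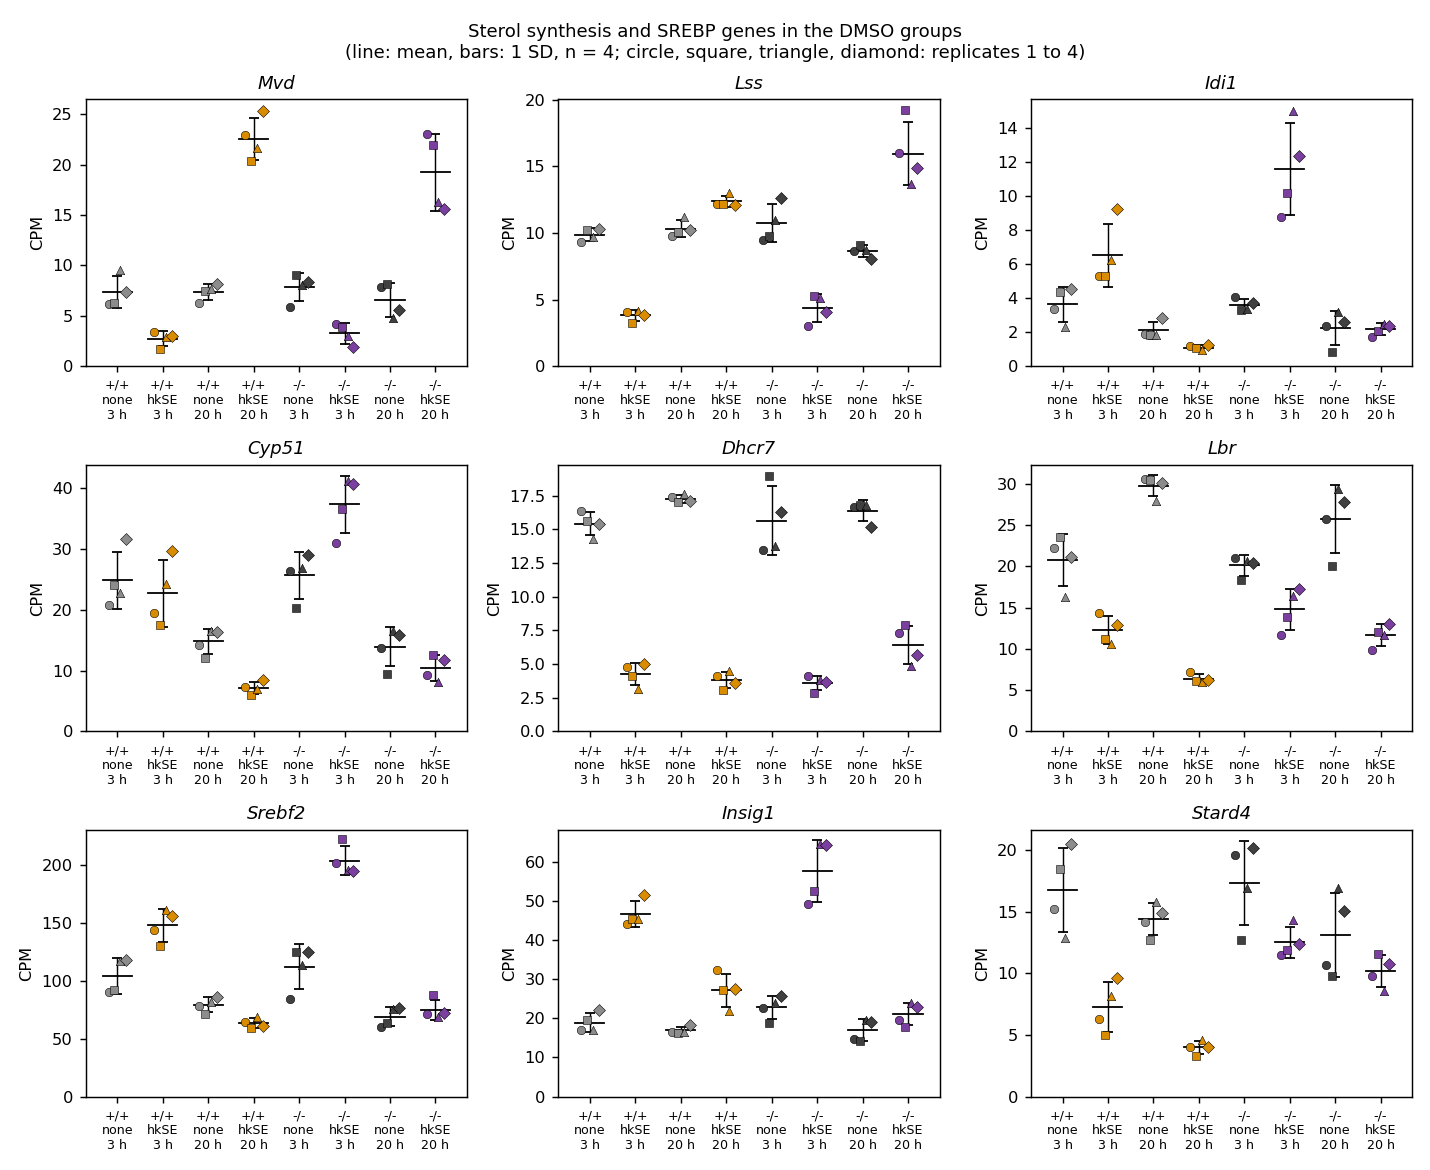
CPM (vertical axes, starting at 0) of 9 genes of synthesis and SREBP control in each library of the 8 groups that received DMSO, with 4 points per group and black lines for the group mean and its SD. Mvd is highest in the activated groups at 20 h, Idi1 in those at 3 h, and Dhcr7 and Lbr lie lower in every activated group than in its unactivated counterpart.

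Srebf2 encodes the SREBP that drives sterol synthesis. At 3 h, its CPM were 90.2, 91.9, 117 and 118 unactivated and 144, 129.8, 161 and 156 activated in Ahr+/+ BMMs and 83.9, 125, 114 and 125 unactivated and 202, 222, 196 and 195 activated in Ahr-/- BMMs. After 20 h, the values were 78.2, 71.3, 82.1 and 86.1 unactivated and 64.5, 58.9, 68.8 and 61.2 activated in Ahr+/+ and 59.8, 63.8, 75.7 and 76.1 unactivated and 71, 87.4, 69 and 72 activated in Ahr-/- BMMs. Srebf2 rose at 3 h with no overlap, with log2 fold changes of 0.50 (SE 0.11, edgeR's quasi-likelihood test, adjusted p = 4.37e-05) and 0.86 (SE 0.11, adjusted p = 3.48e-10). At 20 h, it fell in Ahr+/+ BMMs, with a log2 fold change of -0.33 (SE 0.11, edgeR's quasi-likelihood test, adjusted p = 0.0061), a call lost without replicate 1, 2 or 4 of the activated libraries or replicate 1, 3 or 4 of the unactivated libraries (adjusted p up to 0.0275). At 20 h in Ahr-/- BMMs, the value was 0.12 and did not pass.

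Insig1, an SREBP target whose protein holds SREBPs in the endoplasmic reticulum, rose at 3 h in both genotypes. Its CPM at this time were 17, 19.5, 17.1 and 22 unactivated and 44, 45.4, 45.3 and 51.4 activated in Ahr+/+ and 22.6, 18.7, 24 and 25.8 unactivated and 49.2, 52.5, 64.4 and 64.3 activated in Ahr-/- BMMs, with log2 fold changes of 1.3 (SE 0.13, edgeR's quasi-likelihood test, adjusted p = 1.21e-12) and 1.34 (SE 0.13, adjusted p = 2.92e-13). At 20 h, they were 16.6, 16.2, 16.6 and 18.2 unactivated and 32.2, 27.1, 21.8 and 27.4 activated in Ahr+/+ and 14.7, 14.3, 19.6 and 19.1 unactivated and 19.6, 17.8, 23.8 and 22.8 activated in Ahr-/- BMMs. The rise at 20 h was 0.68 (SE 0.13, edgeR's quasi-likelihood test, adjusted p = 8.37e-06) on the log2 scale in Ahr+/+ BMMs and 0.30 in Ahr-/- BMMs, where it passed only with the replicate block (adjusted p = 2.54e-04). Insig2, its relative, was a DEG in none of the 4 comparisons, with log2 fold changes from -0.18 to 0.26, of which the last passed with the block (adjusted p = 0.00563, edgeR's quasi-likelihood test). Scap fell at 20 h in both genotypes, by 1.0 and 0.73 on the log2 scale, and its value of 0.28 in Ahr-/- BMMs at 3 h passed with the block (adjusted p = 0.00425, edgeR's quasi-likelihood test).

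Srebf1, whose SREBP mainly drives fatty acid synthesis, was a DEG in none of the 4 comparisons. Its CPM at 3 h were 55.1, 51.8, 78.6 and 63.4 unactivated and 51.5, 47.3, 50.2 and 48.6 activated in Ahr+/+ BMMs and 50, 86.5, 64.3 and 70.5 unactivated and 70.3, 75.9, 52.9 and 59.7 activated in Ahr-/- BMMs. The values at 20 h were 61.7, 60.1, 52.6 and 59.4 unactivated and 48.7, 46.4, 48.3 and 41.7 activated in Ahr+/+ and 50.9, 51.1, 49.9 and 51.1 unactivated and 45.9, 56.5, 48 and 43 activated in Ahr-/- BMMs. For Ahr+/+ BMMs, the activated libraries lay below the unactivated ones at both times, and the log2 fold changes of -0.33 and -0.34 passed with the replicate block (adjusted p = 0.004 and 0.00215, edgeR's quasi-likelihood test). Without the block, the adjusted p values were 0.0167 and 0.0129 in the same test.

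Stard4 encodes a carrier that moves cholesterol between membranes and is itself an SREBP target. In the Ahr+/+ BMMs, its CPM were 15.2, 18.5, 12.9 and 20.5 unactivated and 6.26, 5.03, 8.17 and 9.63 activated at 3 h and 14.2, 12.7, 15.8 and 14.9 unactivated and 4.04, 3.29, 4.59 and 4.05 activated at 20 h. In the Ahr-/- BMMs, they were 19.6, 12.7, 16.9 and 20.2 unactivated and 11.5, 11.9, 14.3 and 12.4 activated at 3 h and 10.7, 9.77, 16.9 and 15.1 unactivated and 9.81, 11.6, 8.54 and 10.8 activated at 20 h. Stard4 fell in Ahr+/+ BMMs with no overlap, with log2 fold changes of -1.21 (SE 0.21, edgeR's quasi-likelihood test, adjusted p = 1.67e-06) and -1.84 (SE 0.21, adjusted p = 4.83e-11). In Ahr-/- BMMs, the values were -0.47 (SE 0.20) and -0.37 (SE 0.20) and did not pass, and with the replicate block that at 3 h did (adjusted p = 0.00837, edgeR's quasi-likelihood test).

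Among the genes of LXRs and efflux, Nr1h3 rose in all 4 comparisons. At 3 h, the CPM were 20.1, 20.1, 20.7 and 24.2 unactivated and 30.2, 25.1, 33.3 and 31 activated in Ahr+/+ BMMs and 19.9, 28.7, 22.1 and 25.1 unactivated and 42.5, 42.7, 29.3 and 24.9 activated in Ahr-/- BMMs. By 20 h, the CPM were 25.4, 26.1, 22.8 and 29 unactivated and 90, 99.4, 105 and 109.5 activated in Ahr+/+ and 34.1, 43.4, 28.9 and 32 unactivated and 75, 93.1, 81 and 72.8 activated in Ahr-/- BMMs. The groups did not overlap at 20 h in either genotype, and the log2 fold changes there were 1.97 (SE 0.16, edgeR's quasi-likelihood test, adjusted p = 6.95e-16) and 1.22 (SE 0.16, adjusted p = 1.97e-09). At 3 h, they were 0.49 (SE 0.16) and 0.54 (SE 0.16), and these calls were lost in Ahr+/+ BMMs without replicate 3 of the activated libraries or replicate 1, 2 or 3 of the unactivated libraries (adjusted p up to 0.0232, edgeR's quasi-likelihood test) and in Ahr-/- BMMs without replicate 1 or 3 of the unactivated libraries (adjusted p up to 0.0177). Nr1h2, the other LXR gene, was a DEG only in Ahr+/+ BMMs at 20 h (0.46, adjusted p = 0.00758, edgeR's quasi-likelihood test), a call lost without replicate 1, 2 or 3 of the activated libraries or replicate 1, 3 or 4 of the unactivated libraries (adjusted p up to 0.0322).

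Mylip, an LXR target whose protein marks lipoprotein receptors for degradation, fell in all 4 comparisons. At 3 h, the CPM were 62.4, 51.9, 60.9 and 51.9 unactivated and 26.9, 22.6, 27.1 and 21.7 activated in Ahr+/+ and 67.5, 64.3, 61 and 62.4 unactivated and 31.3, 29.5, 28.1 and 27.8 activated in Ahr-/- BMMs. After 20 h, the values were 56.9, 54.4, 56 and 55.7 unactivated and 35, 35, 33.8 and 38.3 activated in Ahr+/+ and 63.7, 67.1, 64.8 and 64.9 unactivated and 33.6, 30.4, 39.2 and 38 activated in Ahr-/- BMMs. No activated library reached an unactivated one, with log2 fold changes of -1.21 (SE 0.09, edgeR's quasi-likelihood test, adjusted p = 5.40e-18) and -0.65 (SE 0.09, adjusted p = 1.86e-09) in Ahr+/+ BMMs and of -1.13 (SE 0.09) and -0.88 (SE 0.09) in Ahr-/- BMMs.

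Abcg1, the transporter gene for efflux to high-density lipoprotein, fell at 3 h alone. Its CPM at 3 h were 188, 151, 148 and 156 unactivated and 121, 115, 83.5 and 95.1 activated in Ahr+/+ BMMs and 160.3, 191, 177 and 203 unactivated and 94.3, 74.9, 82.1 and 81.1 activated in Ahr-/- BMMs, with log2 fold changes of -0.63 (SE 0.13, edgeR's quasi-likelihood test, adjusted p = 4.81e-05) and -1.14 (SE 0.14, adjusted p = 1.27e-10). At 20 h, they were 203, 199, 161 and 186 unactivated and 206, 193, 155 and 195 activated in Ahr+/+ and 184, 205, 180.4 and 189 unactivated and 165, 133, 161 and 155 activated in Ahr-/- BMMs. The groups overlapped at 20 h in Ahr+/+ BMMs, and in Ahr-/- BMMs the value of -0.30 passed only with the replicate block (adjusted p = 0.00126, edgeR's quasi-likelihood test).

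Abca1, the transporter gene for efflux to lipid-poor apolipoproteins, was a DEG in none of the 4 comparisons. Its CPM were 322, 380.4, 307 and 297 unactivated and 264, 267, 291 and 249 activated in Ahr+/+ and 467, 309, 306 and 341 unactivated and 284, 249, 347 and 330.1 activated in Ahr-/- BMMs at 3 h. The values at 20 h were 405, 472, 442 and 340.4 unactivated and 613, 679.9, 608 and 436 activated in Ahr+/+ and 324, 390.5, 631 and 591 unactivated and 452, 393, 669 and 643 activated in Ahr-/- BMMs. At 20 h in Ahr-/- BMMs, replicates 3 and 4 had more Abca1 than replicates 1 and 2 with and without bacteria. The log2 fold change in Ahr+/+ BMMs at 20 h was 0.49 with an adjusted p of 0.0107 in edgeR's quasi-likelihood test, and 3.61e-04 with the replicate block. The other 3 log2 fold changes were -0.29, -0.23 and 0.16.

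**Figure D3:**
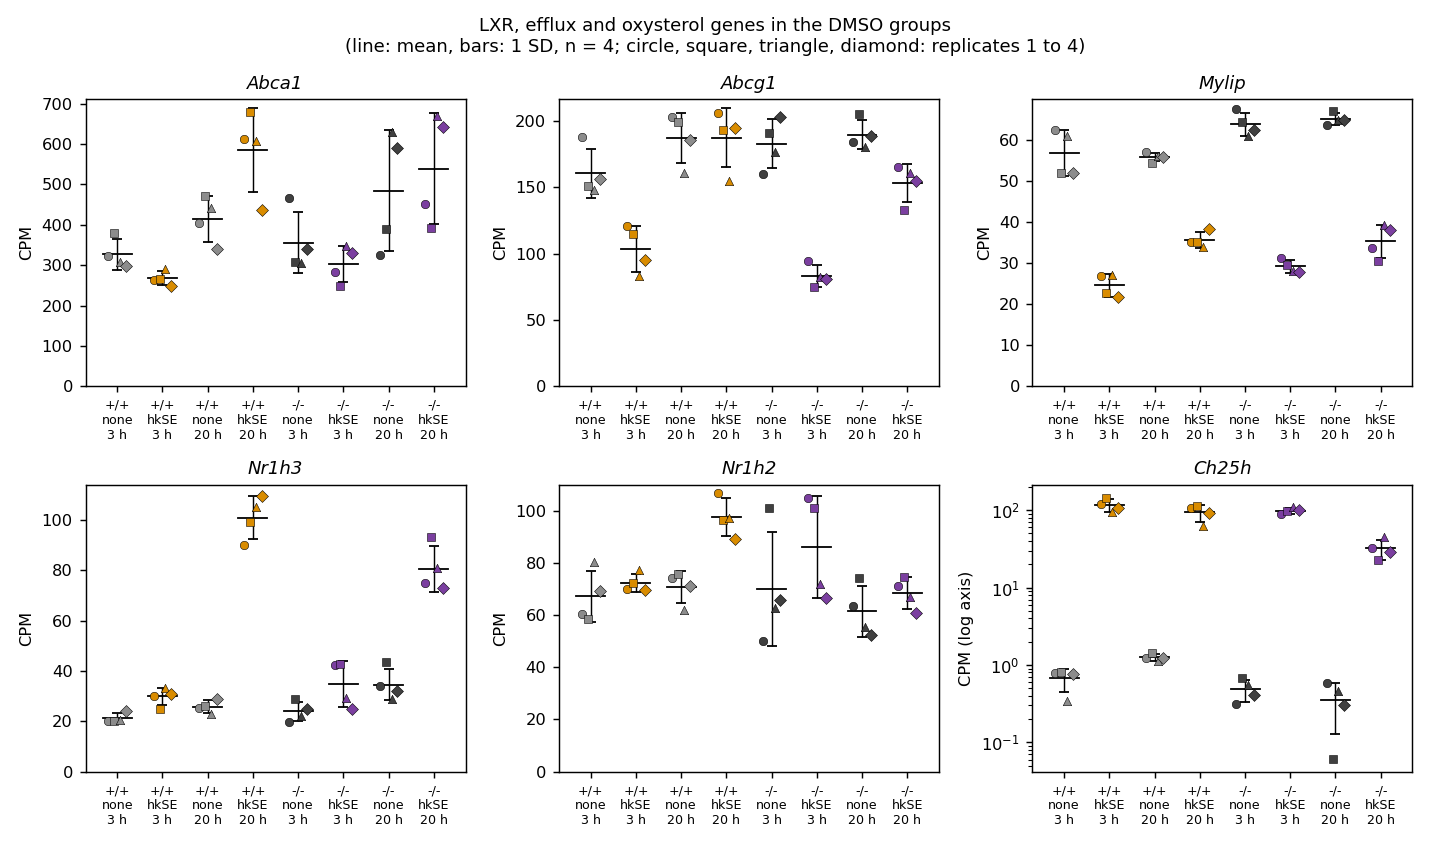
CPM of 5 genes of LXRs and efflux and of Ch25h (vertical axes, logarithmic for Ch25h and starting at 0 for the others) in each library of the 8 groups that received DMSO, with 4 points per group and black lines for the group mean and its SD. Nr1h3 is highest in the activated groups at 20 h, Mylip lies lower in every activated group than in its unactivated counterpart, and Ch25h lies below 1.5 CPM in every unactivated library and above 20 CPM in every activated one.

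Ch25h had the largest change of the 31 genes. In Ahr+/+ BMMs, its CPM were 0.779, 0.803, 0.345 and 0.759 unactivated and 119.8, 144, 94.6 and 105 activated at 3 h, and in Ahr-/- BMMs they were 0.317, 0.677, 0.548 and 0.407 unactivated and 88.8, 96.1, 110.5 and 99.3 activated. By 20 h, the CPM were 1.22, 1.41, 1.14 and 1.24 unactivated and 106, 114, 63 and 91 activated in Ahr+/+ and 0.587, 0.0618, 0.461 and 0.304 unactivated and 32.3, 22.9, 45 and 28.4 activated in Ahr-/- BMMs. Ch25h rose at 3 h with log2 fold changes of 7.38 (SE 0.28, edgeR's quasi-likelihood test, adjusted p = 6.05e-30) and 7.65 (SE 0.29, adjusted p = 3.56e-30). After 20 h, the values were 6.22 (SE 0.25, edgeR's quasi-likelihood test, adjusted p = 9.63e-29) and 6.37 (SE 0.29, adjusted p = 1.24e-26). The unactivated libraries held 7 to 32 reads of Ch25h at 3 h and, apart from the deepest library with 369, 1 to 45 at 20 h, so that the size of these folds rests on few reads. Its promoter is shown because no other member rose as far. It is the 250 bases upstream of the RefSeq transcript start on GRCm38.p6, with the single GCGTG in capitals, and it holds neither CCAAT nor GAAANNGAA.
Ch25h promoter, chr19:34475149-34475398, minus strand: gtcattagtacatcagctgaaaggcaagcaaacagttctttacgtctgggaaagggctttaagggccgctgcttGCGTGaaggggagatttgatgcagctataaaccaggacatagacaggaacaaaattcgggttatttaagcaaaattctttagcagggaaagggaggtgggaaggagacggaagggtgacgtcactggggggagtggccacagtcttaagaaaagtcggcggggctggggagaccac

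The second comparison set 20 h against 3 h. In activated Ahr+/+ BMMs, 6 of the 31 genes were higher and 9 lower at 20 h, where 59.5% of all genes (33% higher and 26.4% lower) were DEGs, and all 15 calls held under every alternative. In activated Ahr-/- BMMs, 9 were higher and 9 lower, against 56% of all genes (31.7% higher and 24.3% lower), and 15 of the 18 held. No identifier series holds activated Ahr-/- libraries of both times, so that time and series cannot be told apart there. In the fit with the series as a covariate, 15 members were called in Ahr-/- and 17 in Ahr+/+ BMMs. Mvd was higher at 20 h by 3.06 and 2.55 on the log2 scale in Ahr+/+ and Ahr-/- BMMs, Nr1h3 by 1.76 and 1.21, and Abca1 by 1.13 and 0.83. For Ahr-/- BMMs, the call of Abca1 was lost with the series as a covariate. Idi1 was lower, with log2 differences of -2.56 and -2.41. So were Cyp51 (-1.66 and -1.84), Srebf2 (-1.22 and -1.45), Insig1 (-0.78 and -1.46) and Scap (-0.91 and -1.11). In BMMs labelled Ahr-/-, Ch25h was also lower at 20 h (-1.62), as were Srebf1 (-0.42), lost without replicate 4 of the libraries at 20 h (adjusted p up to 0.0144, edgeR's quasi-likelihood test), and Hmgcs1 (-1.06), and the small rise of Mylip (0.28) was lost without replicate 3 or 4 of the libraries at 20 h or replicate 1, 2, 3 or 4 of the libraries at 3 h (adjusted p up to 0.0402). Of the 5 genes of LXRs and efflux, 4 were higher and none was lower at 20 h in either genotype, and of the 6 genes of SREBP control none was higher and 4 were lower.

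Without bacteria, far fewer genes differed between the times. In unactivated Ahr+/+ BMMs, 1 member was higher (Lbr, 0.52) and 3 were lower (Sqle, -0.73, Cyp51, -0.74, and Srebf2, -0.39), against 6.07% of all genes (3.31% higher and 2.77% lower). In unactivated Ahr-/- BMMs, 6 were lower and none was higher, against 6.98% of all genes (3.52% higher and 3.46% lower), among them Cyp51 (-0.87), Sqle (-0.81) and Srebf2 (-0.70). The replicate block raised these counts to 11 and 12. All 4 unactivated Ahr-/- libraries at 20 h are of one series, and 3 of those at 3 h are of another. Only replicate 1 at 3 h, which stood apart, shares the series of those at 20 h. With the series as a covariate, 339 of all genes were DEGs between these Ahr-/- groups in place of 1015, and 4 members were called. For Ahr+/+ BMMs, 1 or 2 calls were left without replicate 3 or 4 at 3 h or replicate 1, 2 or 4 at 20 h. In the Ahr-/- BMMs, 3 were left without replicate 3 or 4 at 3 h or replicate 2 at 20 h. Of these calls, only that of Sqle in Ahr+/+ BMMs held under every alternative.

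The effect of activation itself differed between 20 h and 3 h for 7 members toward higher and 8 toward lower values in Ahr+/+ BMMs, against 47.8% of all genes (26.5% higher and 21.3% lower), and for 8 and 6 in Ahr-/- BMMs, against 44.7% of all genes (25.2% higher and 19.4% lower). RLE size factors moved the median of all genes in the latter comparison by -0.106 on the log2 scale and left 11 members called. Mvd and Lss (1.64 and 2.16) had the largest positive differences in Ahr+/+ and Ahr-/- BMMs among the enzymes, and Idi1 (-1.81 and -1.80) had the most negative one in either genotype. Cyp51 (-0.91 and -0.97) and Scap (-0.97 and -1.0) were negative and called in both. Leaving out a single library lost, in Ahr+/+ BMMs, the call of Insig1 without replicate 3 of the activated libraries at 20 h (adjusted p up to 0.0146, edgeR's quasi-likelihood test), that of Sqle in 4, that of Abca1 in 8, that of Abcg1 in 5 and that of Ch25h in 5 of 16 cases. In Ahr-/- BMMs, it lost Hsd17b7 in 7, Dhcr7 in 6 and Nr1h3 in 9 of 16 cases. For Ch25h, the difference was -1.17 (SE 0.37) in Ahr+/+ and -1.29 (SE 0.47) in Ahr-/- BMMs, of which only the first was called without the block and the second with it (adjusted p = 0.00317, edgeR's quasi-likelihood test).

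The third comparison set the libraries labelled Ahr-/- against those labelled Ahr+/+ after DMSO. Without bacteria at 3 h, edgeR's quasi-likelihood test called none of the 31 genes, against 1.21% of all genes (0.241% higher and 0.97% lower), DESeq2 and limma also called none, and 1 (Insig1) had an unadjusted p below 0.05. At 20 h without bacteria, Ch25h was lower in Ahr-/- BMMs, with a log2 fold change of -1.69 (SE 0.33, edgeR's quasi-likelihood test, adjusted p = 0.00168), and was the only member called, against 0.702% of all genes (0.22% higher and 0.482% lower). This call rested on 1 to 20 reads per Ahr-/- library and was lost without replicate 4 of the Ahr-/- libraries or replicate 4 of the Ahr+/+ libraries (adjusted p up to 0.0263, edgeR's quasi-likelihood test). With hk S.E. at 3 h, 2 of the 31 genes were higher in Ahr-/- BMMs, Cyp51 by 0.72 (SE 0.17, edgeR's quasi-likelihood test, adjusted p = 0.00512) and Srebf2 by 0.47 (SE 0.11, adjusted p = 0.0035) on the log2 scale, against 2.83% of all genes (1.22% higher and 1.61% lower). Srebf2 was at 129.8 to 161 CPM in the Ahr+/+ and 195 to 222 CPM in the Ahr-/- libraries. Srebf2 was lost without replicate 2 of the Ahr-/- libraries or replicate 2 of the Ahr+/+ libraries (adjusted p up to 0.0244, edgeR's quasi-likelihood test) and Cyp51 without replicate 2, 3 or 4 of the Ahr-/- libraries or replicate 1 or 2 of the Ahr+/+ libraries (adjusted p up to 0.0461), and neither held with the identifier series as a covariate.

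With hk S.E. at 20 h, 8 of the 31 genes were higher and 1 was lower in Ahr-/- than in Ahr+/+ BMMs, where 12.5% of all genes were DEGs, 5.06% higher and 7.39% lower. The 8 were Idi1 and Fdps of the mevalonate pathway, Fdft1, Lbr, Nsdhl, Hsd17b7 and Dhcr7 of the later steps, and Stard4, and the gene that was lower was Ch25h. Stard4 was at 4.04, 3.29, 4.59 and 4.05 CPM in Ahr+/+ and 9.81, 11.6, 8.54 and 10.8 in Ahr-/- BMMs, a difference of 1.35 (SE 0.21, edgeR's quasi-likelihood test, adjusted p = 3.53e-06) on the log2 scale. Hsd17b7 was at 2.43, 2.24, 3.39 and 2.66 and 5.38, 7.42, 5.19 and 7.58 CPM, a difference of 1.25 (SE 0.22, edgeR's quasi-likelihood test, adjusted p = 3.11e-05). Lbr differed by 0.87 (SE 0.14, edgeR's quasi-likelihood test, adjusted p = 3.36e-06) on the log2 scale, Dhcr7 by 0.75 (SE 0.17) and Idi1 by 0.98 (SE 0.26). In each of these 5 genes, the Ahr-/- libraries all lay above the Ahr+/+ ones. So they did in Fdps and Nsdhl and in genes that were not called, such as Lss, Mvk and Acat2. The share of all genes without overlap was not computed for these libraries. Fdps was at 4.09, 5.27, 6.35 and 6.05 CPM in Ahr+/+ and 9.78, 11.5, 6.51 and 7.87 in Ahr-/- BMMs, with a log2 difference of 0.70 (SE 0.18). Ch25h was lower in every Ahr-/- library, with a log2 difference of -1.54 (SE 0.20, edgeR's quasi-likelihood test, adjusted p = 3.39e-08). The genes of LXRs and efflux gave no call in this fit, and Nr1h2 was called with a block on the plain replicate number.

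Of these 9 calls, those of Lbr, Hsd17b7, Stard4 and Ch25h held in each of the 15 alternatives. With the identifier series as a covariate, these 4 were the only ones left, with log2 differences of 0.74, 1.15, 1.11 and -1.54. Genotype and series coincide in these libraries, so that fit takes the series difference from other groups. It therefore cannot separate the 2 here. Without replicate 1 or 2 of the Ahr+/+ libraries or replicate 2 of the Ahr-/- libraries, 5 members were called. The call of Dhcr7 was lost without replicate 2 of the Ahr-/- libraries (adjusted p up to 0.0101, edgeR's quasi-likelihood test), that of Idi1 without replicate 3 or 4 of the Ahr-/- libraries or replicate 1, 2 or 3 of the Ahr+/+ libraries (adjusted p up to 0.0191), that of Fdps without replicate 1 or 2 of the Ahr-/- libraries or replicate 1 or 2 of the Ahr+/+ libraries (adjusted p up to 0.0374) and that of Fdft1 without replicate 1 or 2 of the Ahr-/- libraries or replicate 1 or 2 of the Ahr+/+ libraries (adjusted p up to 0.0386). That of Nsdhl was lost in 7 of 8 cases. After DMSO and hk S.E. at 20 h, the 7 macrophage markers summed to 17304 to 21207 CPM in Ahr+/+ and 18708 to 30289.9 CPM in Ahr-/- libraries. In the same order, 4 stromal markers (3 tested) summed to 1.51 to 2.52 and 1.2 to 3.77 CPM. The sums of 4 T cell markers (1 tested) were 0.346 to 0.539 and 0.0633 to 0.405 CPM. Those of 3 dendritic cell markers (2 tested) were 0.859 to 1.83 and 0.075 to 0.442 CPM and did not overlap. The part of these cell types in the differences was not tested.

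**Figure D4:**
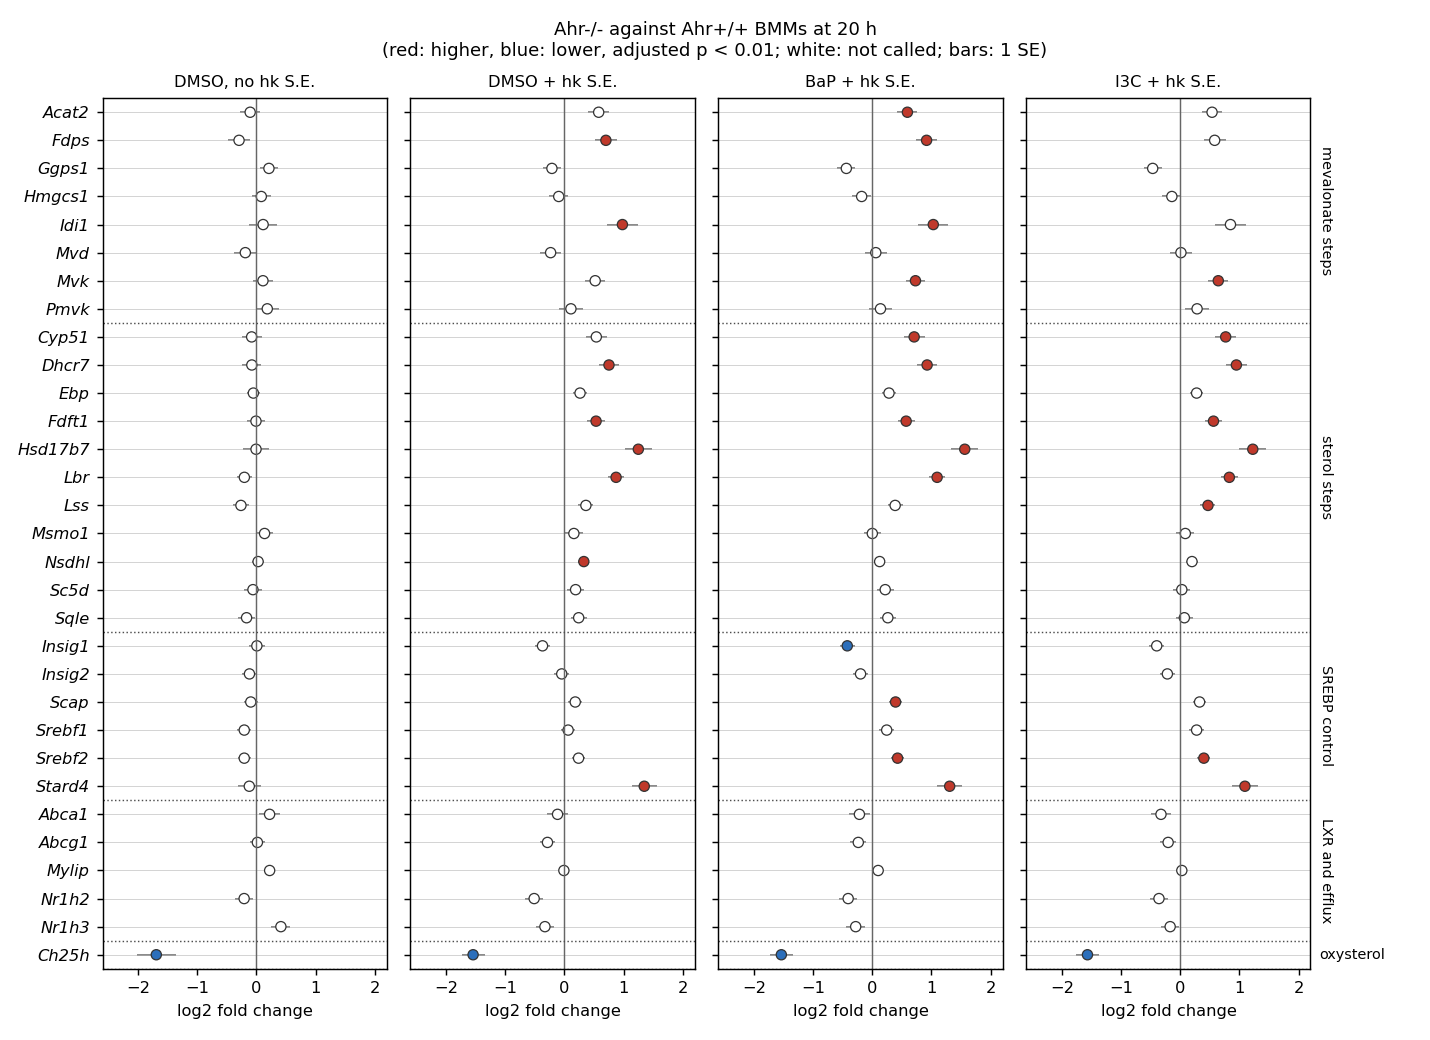
Log2 fold change of Ahr-/- against Ahr+/+ BMMs at 20 h (horizontal axis) for all 31 genes by role, without bacteria after DMSO and with hk S.E. after each of DMSO, BaP and I3C, with filled points for DEGs and bars for the SE. Stard4, Hsd17b7, Lbr and Dhcr7 lie to the right of 0 in the 3 activated comparisons, and Ch25h lies to the left of 0 in all 4.

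The difference in the effect of activation between the genotypes was tested directly. At 3 h, edgeR's quasi-likelihood test called none of the 31 genes, against 0.0138% of all genes (0.00688% higher and 0.00688% lower), DESeq2 and limma called none either, and 5 had an unadjusted p below 0.05. At 20 h, 4.41% of all genes were called (2.08% higher and 2.33% lower). Here 4 members were called, all with a more positive log2 fold change with activation in Ahr-/- than in Ahr+/+ BMMs. They were Stard4 with 1.47 (SE 0.29, edgeR's quasi-likelihood test, adjusted p = 4.48e-04), Hsd17b7 with 1.26 (SE 0.32, adjusted p = 0.00586), Lbr with 1.08 (SE 0.19, adjusted p = 7.91e-05) and Fdps with 0.99 (SE 0.26, adjusted p = 0.00793) on the log2 scale. For Lbr, this was a smaller fall in Ahr-/- BMMs, and for Stard4 a fall that was called only in Ahr+/+ BMMs. For Hsd17b7 and Fdps, it was a rise called only in Ahr-/- BMMs. Stard4 and Lbr were called in all 23 alternatives, Hsd17b7 in 12 and Fdps in 11. The replicate block raised the count to 9 by adding Fdft1, Lss, Dhcr7 and, toward lower values, Insig1 and Nr1h3. Leaving out replicate 1 or 2 of the activated Ahr+/+, 3 or 4 of the unactivated Ahr+/+, or 2 of either Ahr-/- group left 2 calls each.

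The same difference was then computed in the ligand-exposed libraries, a comparison added after the data were seen. These libraries come from the same mice, so they repeat the measurement and not the animals. With hk S.E. at 20 h, 12 members were higher and 2 lower in Ahr-/- BMMs after BaP, against 23.3% of all genes (11.5% higher and 11.8% lower), and 9 were higher and 1 lower after I3C, against 15.6% of all genes (7.47% higher and 8.17% lower). Stard4 was higher by 1.31 (SE 0.21) and 1.09 (SE 0.21), Hsd17b7 by 1.56 (SE 0.23) and 1.23 (SE 0.23), Lbr by 1.09 (SE 0.14) and 0.83 (SE 0.14) and Dhcr7 by 0.93 (SE 0.17) and 0.95 (SE 0.18) on the log2 scale after BaP and I3C. Ch25h was lower, with log2 differences of -1.54 and -1.57. Srebf2 (0.43 and 0.40), Cyp51 (0.71 and 0.77) and Mvk (0.73 and 0.64) were DEGs after either ligand and not after DMSO, where their log2 differences were 0.24, 0.54 and 0.52. The test of the ligand effect between genotypes did not call these 3. The identifier series as a covariate left 8 and 6 members, in a fit that cannot separate series from genotype in these libraries. Without replicate 2 of the Ahr-/- BaP libraries the first count was 9, and without replicate 1 or 2 of the Ahr+/+ I3C libraries the second was 6.

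Over the 12 activated libraries of each genotype at 20 h, Stard4 ranged from 3.29 to 5.66 with a median of 4.14 in Ahr+/+ and 8.54 to 11.6 with a median of 10.2 in Ahr-/- BMMs, in CPM. Hsd17b7 ranged from 1.92 to 3.39 with a median of 2.52 in Ahr+/+ and 5.19 to 7.58 with a median of 6.73 in Ahr-/- BMMs. Lbr ranged from 4.63 to 7.73 with a median of 6.08 in Ahr+/+ and 8.96 to 13 with a median of 12 in Ahr-/- BMMs. None of these ranges met. Dhcr7 spanned 2.86 to 4.46 with a median of 3.54 in Ahr+/+ and 4.67 to 8.03 with a median of 6.62 in Ahr-/- BMMs, and Ch25h spanned 59 to 114 with a median of 89.8 in Ahr+/+ and 21.1 to 45 with a median of 30.1 in Ahr-/- BMMs. At 20 h, 7 of the 31 genes (Acat2, Srebf2, Stard4, Dhcr7, Hsd17b7, Lbr and Lss) lay higher in all 12 Ahr-/- than in all 12 Ahr+/+ libraries and 1 (Ch25h) lower, where 9.22% of all genes tested did not overlap. At 3 h, 2 genes lay higher (Srebf2 and Fdft1), where 2.44% of all genes did not overlap. The 12 libraries of a genotype come from 4 mice.

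**Figure D5:**
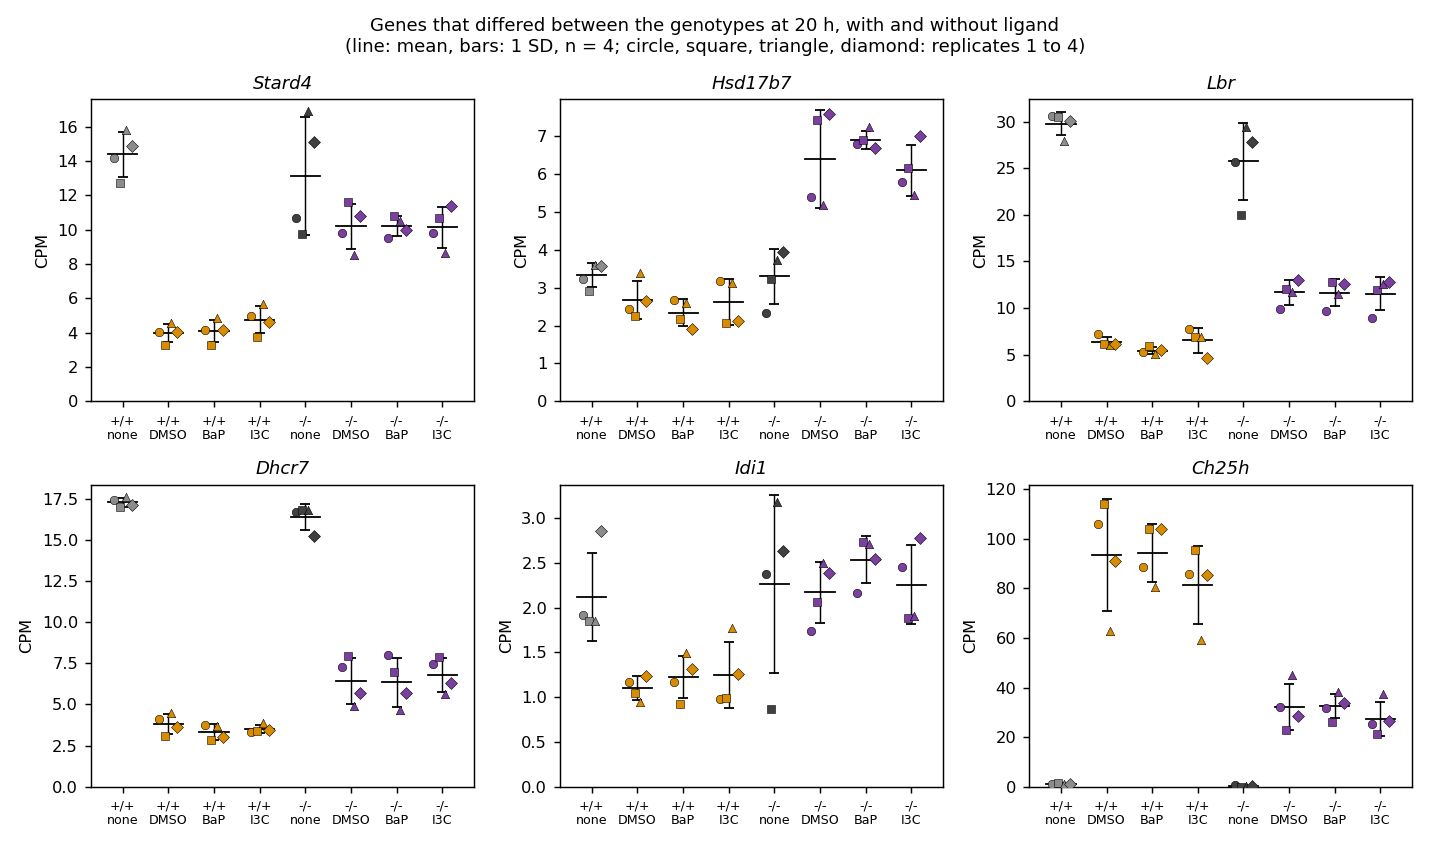
CPM (vertical axes) of 6 genes in each library of the 8 groups at 20 h, without bacteria and with hk S.E. after each of DMSO, BaP and I3C, in both genotypes, with 4 points per group and black lines for the group mean and its SD. The activated Ahr-/- libraries lie above the activated Ahr+/+ libraries for Stard4, Hsd17b7, Lbr and Dhcr7 and below them for Ch25h, and the unactivated groups lie near each other for the first 4.

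At 3 h with ligand, 6 members were higher and 2 lower in Ahr-/- BMMs after BaP, against 4.88% of all genes (2.7% higher and 2.18% lower), and 1 was higher and 1 lower after I3C, against 2.85% of all genes (1.14% higher and 1.71% lower). Insig2 was lower after either ligand, with log2 differences of -0.69 (SE 0.13, edgeR's quasi-likelihood test, adjusted p = 3.95e-04) and -0.63 (SE 0.13, adjusted p = 0.00128), and Srebf2 was higher, with 0.51 (SE 0.11) and 0.48 (SE 0.11). The rest after BaP were Fdft1 (0.60), Cyp51 (0.66), Srebf1 (0.51), Stard4 (0.96) and Mylip (0.37), which were higher, and Abcg1 (-0.51), which was lower. The count for BaP was 1 without replicate 2 and 5 without replicate 1 of the Ahr-/- libraries, and 3 and 2 without replicates 1 and 2 of the Ahr+/+ libraries. That for I3C was 0 without replicate 2 of the Ahr-/- or replicate 1 or 2 of the Ahr+/+ libraries and 5 without replicate 3 of the latter.

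The fourth comparison asked what the AhR ligands did to these genes in activated BMMs. By edgeR's quasi-likelihood test, none of the 31 genes was a DEG with either ligand against DMSO, in either genotype or at either time. DESeq2 and limma also called 0, none had an unadjusted p below 0.05 in any of the 8 comparisons, and no alternative gave a call. For BaP, 0.0482% and 0.234% of all genes were DEGs in Ahr+/+ BMMs at 3 h and 20 h, and 0.0275% and 0.0138% in Ahr-/- BMMs. For I3C, the shares were 0.131%, 0.509%, 0.0206% and 0.206% in the same order. These shares depend on the fit. For BaP in Ahr+/+ BMMs at 20 h, 34 of all genes were DEGs here, 21 without the filter, 90 by DESeq2 and 271 with the replicate block. In the Ahr+/+ BMMs, log2 fold changes with BaP went from Stard4 at -0.27 (SE 0.23) to Ch25h at 0.18 (SE 0.19) at 3 h and from Lbr at -0.23 (SE 0.14) to Ggps1 at 0.23 (SE 0.15) at 20 h. With I3C, they went from Dhcr7 at -0.20 (SE 0.20) to Mvk at 0.26 (SE 0.19) at 3 h and from Ch25h at -0.20 (SE 0.19) to Stard4 at 0.25 (SE 0.22) at 20 h. The SE of a member's log2 fold change was between 0.09 and 0.28 in these 4 comparisons, so that changes of this size could not be told from 0 with 4 libraries a group.

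Among Ahr-/- libraries, the widest values with BaP were those of Idi1 at -0.34 (SE 0.22) to Mvd at 0.43 (SE 0.22) at 3 h, and with I3C those of Idi1 at -0.17 (SE 0.22) to Mvd at 0.32 (SE 0.22) at 3 h. Set directly against each other in Ahr+/+ BMMs, BaP and I3C gave no DEG among the members: edgeR, DESeq2 and limma called 0 members at 3 h and at 20 h (0.11% and 0.282% of all genes by edgeR), and none had an unadjusted p below 0.05. Differences went from Stard4 at -0.40 (SE 0.23) to Ch25h at 0.21 (SE 0.19) at 3 h and from Fdps at -0.31 (SE 0.19) to Ch25h at 0.21 (SE 0.19) at 20 h. The 2 ligands were used at different concentrations. The difference of a ligand effect between the genotypes was called for 0 members in any of its 4 tests, by edgeR as by DESeq2 and limma, with none at an unadjusted p below 0.05 (0.0138% of all genes for BaP at 3 h and 0% in the other 3). A missed threshold does not show that ligands left these genes alone.

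Further genes of the pathway were described from lists. Of 6 other genes of sterol synthesis found in the tables, 5 were tested and Idi2 was not expressed enough. In Ahr+/+ BMMs at 20 h, Tm7sf2, a sterol reductase gene that overlaps in function with Lbr, fell by 1.36 on the log2 scale, and Por, the gene of the electron donor of Cyp51, rose by 0.42. Tm7sf2 also fell in Ahr-/- BMMs at 20 h (-1.09), where Por had a log2 fold change of -0.25 that did not pass. Activated Ahr-/- BMMs at 20 h had less Por than Ahr+/+ BMMs, with a log2 difference of -0.71 (SE 0.10, edgeR's quasi-likelihood test, adjusted p = 1.68e-07). Shares of all genes called with hk S.E. were 56.6% at 3 h (24.2% higher and 32.3% lower) and 58.6% at 20 h (29.9% and 28.7%) in Ahr+/+ BMMs, and 57.3% (25.5% and 31.8%) and 54.3% (28.3% and 26%) in Ahr-/- BMMs. Against these shares, in the list of 5 genes for SREBP processing, 3 rose and 1 fell in Ahr+/+ BMMs at 3 h, with the ubiquitin ligase genes Rnf139 at 2.24 and Rnf145 at 1.85 on the log2 scale, and 2 rose and 1 fell at 20 h. For Ahr-/- BMMs, 3 rose and 1 fell at 3 h and 2 rose at 20 h.

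In a list of 12 other LXR targets and partners, 9 were tested, and Abcg5, Abcg8 and Apoc2 were not. None rose and 4 fell in either genotype at 3 h, and at 20 h 1 rose and 7 fell in Ahr+/+ and 1 rose and 8 fell in Ahr-/- BMMs. Of all genes, 32.3% fell at 3 h and 28.7% at 20 h in Ahr+/+ BMMs and 31.8% and 26% in Ahr-/- BMMs, while 24.2%, 29.9%, 25.5% and 28.3% rose in the same order. In Ahr+/+ BMMs at 3 h, Arl4c, a small GTPase gene, had a log2 fold change of -4.44 and Rxra, the gene of the partner receptor of LXRs, one of -2.81. At 20 h, Apoc1 was at -3.54, Mertk, a receptor gene for apoptotic cells, at -3.46 and Lpl, the gene of lipoprotein lipase, at -2.99. Apart from Ahrr, Arl4c was the only gene of the lists called with a ligand, and it rose in Ahr+/+ BMMs at 3 h by 1.09 with BaP and 0.60 with I3C on the log2 scale. Of 5 genes that act on oxysterols or sense them, Cyp46a1 and Cyp7b1 were not tested. The 3 tested fell in Ahr+/+ BMMs at both times, while Ch25h rose. Gpr183, the receptor gene for an oxysterol made from the product of Ch25h, was at -4.73 and -6.45, Cyp27a1, a sterol hydroxylase gene, at -0.95 and -5.14, and Hsd3b7, the gene of an enzyme that removes such oxysterols, at -1.72 and -0.59 on the log2 scale at 3 h and 20 h. In BMMs labelled Ahr-/-, 3 fell at 3 h and 2 at 20 h.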

How the data were processed

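RNA of 64 BMM cultures was sequenced from stranded mRNA libraries. The authors aligned the reads to mm10 with HISAT2 2.1.0, counted read pairs per gene of GENCODE with HTSeq 0.9.1 on the strand of the gene, and deposited these counts without normalization. They also deposited a table of log2 values from the variance-stabilizing transformation of DESeq2 (VST), which holds all 31 members. The 5 entries per file that name no gene (19.2% to 25.1% of read pairs) entered neither library sizes nor tests. Gene symbols, exon lengths and positions came from GENCODE on GRCm38, and promoters from RefSeq on GRCm38.p6. Of the listed genes, Faxdc2 was not matched. One gene of the lists is not reported here.

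The count analysis used R 4.3.3 and edgeR 4.0.16 (filterByExpr with a min.count of 10, TMM, quasi-likelihood fit of 16 group means to all 64 libraries with 48 residual and 5.06 prior degrees of freedom, Benjamini-Hochberg adjustment over 14537 genes, threshold 0.01). There were 34 comparisons, 4 of them (genotype after a ligand) added after the data were seen. CPM are counts over the TMM-scaled library size. The fit was tested on simulated counts with 200 changed genes, for activation in Ahr+/+ BMMs at 20 h. It called 23 of 67 genes changed 1.5-fold, 42 of 67 changed 2-fold and 63 of 66 changed 4-fold, with 0 false calls. In this simulation, many changes of 1.5-fold were thus missed at the threshold. It held 200 changed genes among 14537 and no differences between mice or identifier series. In the data, 58.6% of all genes were DEGs in that comparison, so the rates and the 0 false calls do not carry over to it. Alternatives were DESeq2 1.42.0, RLE size factors, no filter, the compared groups only, limma 3.58.1 on the VST values, the replicate block, the identifier series as a covariate, a threshold of 0.05 and leaving out each library.

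The methods of the study give 4 mice per genotype, and replicate numbers were taken as these mice. Within a time, deviations of equal-numbered libraries from their group means had a median correlation of 0.651 in Ahr-/- (45 of 48 pairs above 0.1) and 0.251 in Ahr+/+ BMMs (44 of 48), against -0.472 and -0.074 for other numbers. Of pairs with other numbers, 51 of 144 were also above 0.1 in Ahr-/- (up to 0.774) and 7 of 144 in Ahr+/+ BMMs. Ahr-/- replicates 1 and 2 followed each other, as did 3 and 4, apart from replicate 1 without bacteria at 3 h. Of 64 libraries, 57 correlated best with their own number, and the other 7 are all replicate 1 of Ahr-/- groups. The correlations thus do not separate 4 mice in Ahr-/- BMMs, and the block there rests on taking the numbers as mice. Between genotypes the numbers mark different mice. Whether replicates came from separate cultures is not stated beyond this.

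The members and lists were chosen with earlier results of these data known. All 31 members are accounted for. Values per library are printed for Hmgcs1, Sqle, Idi1, Insig1, Srebf1, Srebf2, Abca1, Abcg1 and Ch25h, for the 6 further DEGs of activation with the largest mean absolute log2 fold change, and for up to 8 DEGs of a genotype comparison or interaction, in the libraries that received DMSO. From the lists, up to 3 DEGs with the largest change are named, and other list genes named were chosen after their values were seen.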

Additional observations from a re-analysis of the deposited data

Results flagged for a closer look

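Of 272 groups of 4 libraries examined for the 17 genes with values per library, 17 held a library whose gap to the nearest other was above the critical value of Dixon's test, or 6.25%, where chance gives about 1 in 20. In activated Ahr-/- BMMs at 3 h after BaP, replicate 1 stood apart in Abcg1 (96.2 CPM). In activated Ahr-/- BMMs at 20 h, replicate 2 stood apart in Srebf2 (87.4 CPM). In activated Ahr-/- BMMs at 3 h, replicate 1 stood apart in Hsd17b7 (4.42 CPM). In unactivated Ahr-/- BMMs at 20 h, replicate 3 stood apart in Srebf1 (49.9 CPM). In unactivated Ahr-/- BMMs at 20 h, replicate 4 stood apart in Dhcr7 (15.2 CPM). In activated Ahr-/- BMMs at 3 h after I3C, replicate 1 stood apart in Abcg1 (91.3 CPM). In activated Ahr-/- BMMs at 3 h after I3C, replicate 2 stood apart in Fdps (10.2 CPM), Mylip (33.3 CPM) and Srebf1 (85.6 CPM). In activated Ahr+/+ BMMs at 20 h after BaP, replicate 3 stood apart in Abca1 (739 CPM) and Abcg1 (161 CPM). In activated Ahr+/+ BMMs at 20 h, replicate 1 stood apart in Lbr (7.19 CPM). In unactivated Ahr+/+ BMMs at 20 h, replicate 4 stood apart in Idi1 (2.86 CPM). In unactivated Ahr+/+ BMMs at 3 h, replicate 1 stood apart in Hsd17b7 (3.41 CPM). In unactivated Ahr+/+ BMMs at 3 h, replicate 3 stood apart in Ch25h (0.345 CPM). In unactivated Ahr+/+ BMMs at 3 h, replicate 4 stood apart in Nr1h3 (24.2 CPM) and Sqle (45 CPM). The values of Abca1 and Abcg1 in replicate 3 after BaP come from one library, as do those of Fdps, Mylip and Srebf1 in replicate 2 after I3C.

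The effect of hk S.E. differed between 20 h and 3 h by the test of that difference in edgeR. In Ahr+/+ BMMs, the log2 difference was positive for Abca1 (0.78), Abcg1 (0.63), Mylip (0.56), Nr1h3 (1.48), Mvd (3.04), Lss (1.64) and Sqle (0.69) and negative for Idi1 (-1.81), Ch25h (-1.17), Insig1 (-0.62), Scap (-0.97), Srebf2 (-0.83), Cyp51 (-0.91), Ebp (-0.70) and Lbr (-1.46). For Ahr-/- BMMs, it was positive for Abcg1 (0.83), Nr1h3 (0.68), Mvd (2.82), Dhcr7 (0.77), Hsd17b7 (0.98), Lss (2.16), Nsdhl (0.59) and Sqle (0.83) and negative for Idi1 (-1.80), Insig1 (-1.04), Scap (-1.0), Srebf2 (-0.74), Cyp51 (-0.97) and Lbr (-0.70). Between the genotypes, the log2 fold change with hk S.E. at 20 h was more positive in Ahr-/- BMMs for Fdps (0.99), Stard4 (1.47), Hsd17b7 (1.26) and Lbr (1.08). For Stard4 and Lbr, this was a smaller fall. In activated libraries at 20 h, genotype and identifier series cannot be told apart.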

How the results depend on the processing

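Counts of members called moved by over 1.5 times as follows. With only the compared groups in the fit, they were 0 of 6 for unactivated Ahr-/- BMMs at 20 h against 3 h, 10 of 16 for activation in Ahr-/- BMMs at 20 h, and for genotype 0 of 8 after BaP at 3 h, 6 of 10 after I3C at 20 h, 0 of 2 after I3C at 3 h, 5 of 9 and 0 of 2 after DMSO with bacteria at 20 h and 3 h, 0 of 1 without bacteria at 20 h and 2 of 4 for the interaction at 20 h. With the identifier series as a covariate, they were 1 of 4 for unactivated Ahr+/+ BMMs at 20 h against 3 h, and for genotype 8 of 14 and 5 of 8 after BaP at 20 h and 3 h, 6 and 4 (against 10 and 2) after I3C, 4 of 9 and 0 of 2 with bacteria after DMSO and 0 of 1 without bacteria at 20 h. Without the filter on low counts, 3 of 6 and 2 of 4 were left for unactivated Ahr-/- and Ahr+/+ BMMs at 20 h against 3 h. DESeq2 and limma both gave 4 in place of 2 after I3C and after DMSO at 3 h. For the interaction at 20 h, DESeq2 gave 7 and limma 2, and limma lost the call of Ch25h without bacteria at 20 h (0). At a threshold of 0.05, the counts were 11 and 7 for unactivated Ahr-/- and Ahr+/+ BMMs between times, 13 after BaP at 3 h, 16 and 6 after I3C at 20 h and 3 h, 15 and 8 after DMSO with bacteria, and 7 for the interaction. The replicate block gave 12 and 11 for the unactivated groups between times and 9 for the interaction, lost no call in any comparison and, beside the calls given with their genes, added 4 and 2 with bacteria between times in Ahr+/+ and Ahr-/- BMMs and 2 and 4 to the difference of activation between times. For genotype, where equal numbers are different mice, a block on the plain number gave 6 after I3C and 5 after DMSO at 3 h. With smaller moves, it gave 10 after BaP at 3 h and, at 20 h with bacteria, 13 after DMSO and 14 after I3C, against 8, 9 and 10. Outside the leave-outs, log2 values changed sign in 196 cases, none of them called in either fit, and 1 had an unadjusted p below 0.05 in either fit (Ch25h in the interaction at 20 h, 0.15 by edgeR and -0.83 by limma on VST values). Leaving out 1 library each gave ranges, in Ahr+/+ BMMs first, of 15 to 17 and 14 to 17 for activation at 3 h, 15 to 20 and 13 to 15 at 20 h, 1 to 4 and 3 to 6 between times without bacteria, 15 to 17 and 16 to 18 with bacteria and 12 to 15 and 11 to 16 for their difference. For genotype, the ranges were 0 to 1 without bacteria at 20 h, 0 to 3 and 5 to 10 with bacteria, 1 to 8 and 9 to 15 after BaP, 0 to 5 and 6 to 13 after I3C at 3 h and 20 h, and 2 to 6 for the interaction at 20 h. Outside the leave-outs, the other 233 counts stayed within 1.5 times. Over all genes tested, the genotype difference with bacteria at 20 h had 1811 DEGs after DMSO, 493 with the identifier series as a covariate, 532 with the compared groups only and 2931 at a threshold of 0.05. Of single values outside the leave-outs, 8111 kept their side of the threshold, 183 gained and 137 lost a call. The cause of these changes was not tested. Depth limits Ch25h without bacteria, with 1 to 45 reads in 15 of 16 libraries.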

Other observations

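Genes of fatty acid synthesis and of cholesterol handling lie next to the sterol route and were described from lists, with no test of the lists. All 14 genes of fatty acid synthesis were tested. With hk S.E., 1 rose and 9 fell in Ahr+/+ BMMs at 3 h, and 3 rose and 7 fell at 20 h, against 56.6% and 58.6% of all genes called in either direction. Ahr-/- BMMs had 1 that rose and 8 that fell at 3 h, and 4 each at 20 h, against 57.3% and 54.3%. The desaturase genes fell furthest in Ahr+/+ BMMs, with log2 fold changes of -3.35 for Scd2 at 3 h and of -4.95 for Fads2 and -3.32 for Scd1 at 20 h, and Me1, the gene of an enzyme that supplies NADPH, rose at 20 h (2.04). Activated Ahr-/- BMMs at 20 h had more Fads2 (1.58) and Scd2 (0.93) and less Elovl6 (-0.61) than Ahr+/+ BMMs, with 5 of the 14 genes higher and 1 lower, against 5.06% and 7.39% of all genes, and genotype and identifier series cannot be told apart there.

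All 13 genes of cholesterol handling, which covers esterification, lysosomal release and transfer between membranes, were tested. With hk S.E., 5 rose and 6 fell in Ahr+/+ BMMs at 3 h, and 8 rose and 4 fell at 20 h, against 56.6% and 58.6% of all genes called in either direction. Among Ahr-/- BMMs, 5 rose and 5 fell at 3 h, and 6 rose and 4 fell at 20 h, against 57.3% and 54.3%. Soat2, the gene of an enzyme that esterifies cholesterol, rose in Ahr+/+ BMMs at 20 h by 8.35 on the log2 scale, while Lipa, the gene of lysosomal acid lipase, had a log2 fold change of -2.31 and Osbpl5, a sterol-binding protein gene, one of -2.19. At 20 h with bacteria, 4 of these genes were lower in Ahr-/- than in Ahr+/+ BMMs, Soat2 (-0.92), Npc2 (-0.76), Stard3 (-0.58) and Gramd1b (-0.51), and none was higher, against 7.39% and 5.06% of all genes.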
